A study of Homo sapiens with 9 samples.

Results

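The response that 2 related butenolides share was read from HepG2 cells by setting all 6 treated libraries, 3 with PQY09 and 3 with PQY23_1, against the 3 libraries of solvent controls. The libraries were taken by their treatment label alone, each compound had equal weight, and the comparison used 9 of the 9 libraries in the study. HepG2 is an established line of human liver carcinoma cells that keeps much of the hepatocyte expression programme. PQY09 is Butyrolactone I and PQY23_1 is a derivative of it, each applied at 50 µM, while the controls received 0.1% DMSO. Neither the length of exposure nor the structure of PQY23_1 is stated in the sources used here. The same sources do not say whether the compound cultures held DMSO too, or whether the 3 libraries of a group were separate cultures, so the p-values measure the spread between these libraries, which may be technical.

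Butyrolactone I is made by fungi of the genus Aspergillus and is known to block cyclin dependent kinases. Genes of 3 kinds recur in the results. Immediate early genes, such as those for the AP-1 subunits, are switched on within minutes by growth factor and stress signals without new protein synthesis. The transcription factor ATF4 drives amino acid import, amino acid synthesis and the charging of transfer RNA when amino acids are short or the endoplasmic reticulum is stressed. SREBP transcription factors drive the enzymes of cholesterol and fatty acid synthesis, and nuclear receptors such as PXR and CAR drive those that clear foreign compounds, a main task of the liver.

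The deposited counts summed to between 85050531 and 107538450 per library, and 23192 to 24256 genes had a count above 0. All 8 hepatocyte-like markers exceeded 1 CPM (the count relative to the library total, scaled by edgeR's TMM factors), whereas of 6 endothelial markers 2 did so, with a summed level of 4.26 to 7.29 CPM in the treated libraries and 4.83 to 4.96 CPM in DMSO. Of 7 fibroblast and stellate markers 3 exceeded it (summed level 58.0 to 67.2 CPM treated, 57.1 to 65.9 CPM in DMSO). Of 5 biliary markers 3 did (SPP1, SOX9 and KRT19, summed level 3112 to 3895 CPM treated, 2807 to 3261 CPM in DMSO), and CFTR was at 0 in all libraries. Of 7 leukocyte markers CD3E and MARCO were at 0 in all libraries and PTPRC in all but 1. Their summed level, 1038 to 1413 CPM in DMSO and 516 to 1169 CPM in the treated libraries, was mostly LYZ, a lysozyme gene. LYZ itself was lower in the pooled comparison (log2 change -0.71 ± 0.13, SE, adjusted p = 0.0234 in edgeR's quasi-likelihood test). It had 1000, 1357 and 1382 CPM in the DMSO libraries, 649, 486.5 and 613 under PQY09 and 943, 1115 and 925 under PQY23_1. The fall was larger under PQY09, and the PQY23_1 libraries overlapped with DMSO. The part of LYZ in the results below was not tested. The 3 groups separated along the first 2 principal components, which held 15.8% and 15.2% of the variance. Pearson's r between libraries over genes was 0.967 to 0.972 within groups and 0.963 to 0.970 between them.

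Of 20157 genes that passed the filter on low counts, 584 (2.9%) differed between the treated and the DMSO libraries at an adjusted p below 0.05 in edgeR's quasi-likelihood test with Benjamini-Hochberg adjustment. The treated libraries were higher for 335 genes (1.66%) and lower for 249 (1.24%). Most changes were small, with a median size of 0.48 on the log2 scale, and 58 genes changed at least 2-fold (37 higher, 21 lower). The called genes were mainly protein coding (549 of 584), as were 13919 of the 20157 genes tested. Calls were made for 3.94% of protein coding genes and 0.537% of long noncoding RNA genes. Calls were more frequent at higher levels, from 0.247% of genes below 1 CPM, where the median SE was 0.56, to 8.31% above 100 CPM, where it was 0.06. Numbers of called list members below are to be read against these shares. DESeq2's Wald test called 1543 of the 20157 genes, and 3334 had an unadjusted p below 0.05 in edgeR's test. The 6 treated libraries did not overlap with the 3 DMSO libraries for 512 of the 584. Over all genes tested, all 6 lay above the DMSO libraries for 982 (4.87%) and below them for 926 (4.59%). In bulk RNA a lower level per cell and fewer cells that express a gene cannot be told apart.

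Whether the compounds moved a gene to the same extent was read from the difference PQY23_1 minus PQY09, which is estimated from the treated libraries alone. A called gene was classed as unequal where the difference itself had an adjusted p below 0.05. Of the remaining called genes, those were classed as alike for which the 95% interval of the difference lay within plus or minus the pooled change. Both compounds then moved the gene the same way, but not necessarily to an equal extent. CHST15, for example, was alike with -1.13 under PQY09 and -0.58 under PQY23_1 (95% interval of the difference 0.26 to 0.85). By this reading 344 genes were alike (190 higher, 154 lower), 128 (21.9%) were unequal and 112 were unresolved. For comparison, the difference between compounds passed the test for 448 (2.22%) of all genes tested. Of the 128 unequal genes, 82 moved more under PQY09 and 46 more under PQY23_1. Another 320 genes differed between the compounds without being called in the pooled comparison.

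**Figure D1:**
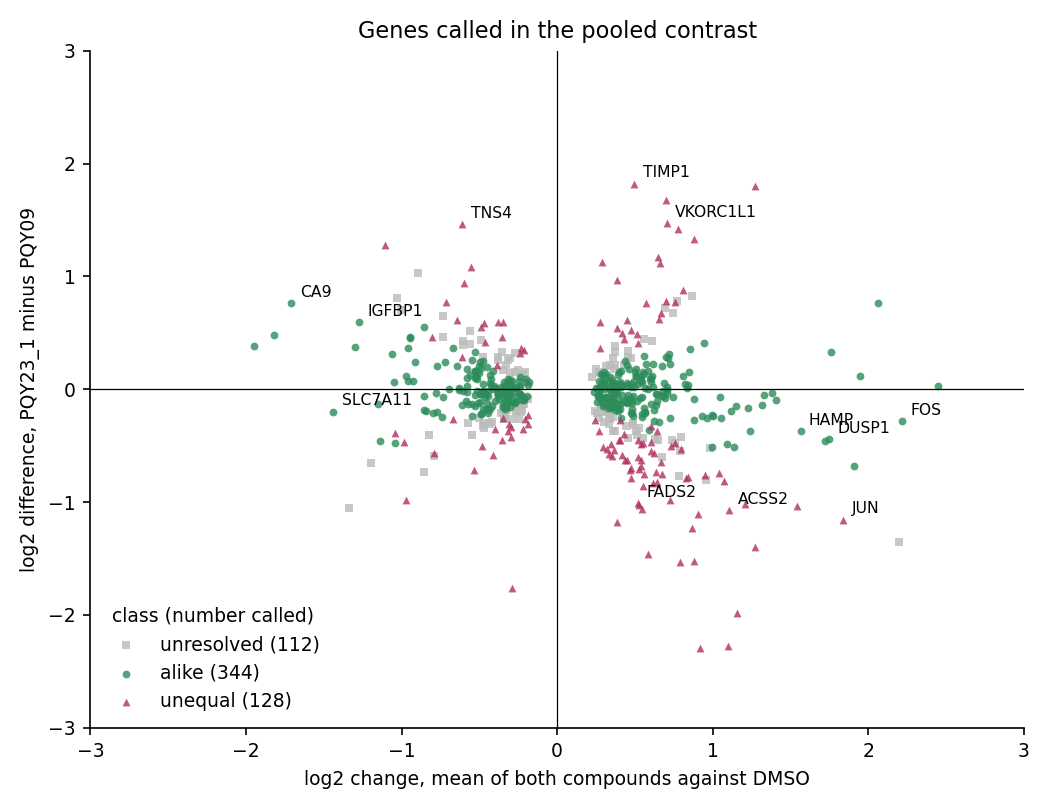
Log2 change of each called gene averaged over both compounds against DMSO (horizontal axis) and the log2 difference PQY23_1 minus PQY09 (vertical axis), from the fit of all 9 libraries. Points are genes, coloured and shaped by class (344 alike, 128 unequal, 112 unresolved); 576 of the 584 are within the axes. By their definition, alike genes lie nearer to the horizontal line than to the vertical one. FOS and DUSP1 are at the right and SLC7A11 and CA9 at the left, with CA9 above the horizontal line at a difference of 0.77. The unequal genes JUN and ACSS2 lie below that line.

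The number of calls was lower in every fit that left out a library. Each such fit also had fewer libraries, and the part of this in the lost calls was not tested. Leaving out DMSO replicate 1, 2 or 3 gave 244, 169 or 217 calls. Leaving out PQY09 replicate 1, 2 or 3 gave 310, 367 or 319, and leaving out PQY23_1 replicate 1, 2 or 3 gave 513, 414 or 386. Of the 584 genes, 144 (80 higher, 64 lower) were called in all 9 of these fits, and so were 60 of the 113 called genes named by the rule for this text. For a gene of the rule that lost its call, the number of fits and the highest adjusted p are given with it.

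Immediate early genes held the largest rises among the genes named. FOS, which encodes an AP-1 subunit (hg38 chromosome 14, 75278826 to 75282230, plus strand), had 7.03, 5.12 and 2.45 CPM in the DMSO libraries, 22.4, 23.0 and 29.3 under PQY09 and 18.3, 18.2 and 24.9 under PQY23_1. Every treated library was above every DMSO library, although the DMSO libraries themselves differed. Such separation was a condition for naming the largest alike and unequal changes, so it adds no support for those genes. The pooled log2 change of FOS was 2.22 ± 0.31 (SE, adjusted p = 0.00929), a 4.64-fold rise. Between the compounds FOS differed by -0.28 (95% interval -1.02 to 0.45, adjusted p = 0.771). The call for FOS was lost in 1 of 9 fits (adjusted p = 0.0547 without DMSO replicate 2).

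DUSP1, a phosphatase that switches off MAP kinases (hg38 chromosome 5, 172768096 to 172771195, minus strand), had 26.0, 19.5 and 20.2 CPM in the DMSO libraries, 81.3, 77.3 and 98.4 under PQY09 and 59.9, 56.5 and 73.0 under PQY23_1. The lowest treated library was above 50 CPM and the highest DMSO library below 30 CPM. Its log2 change was 1.75 ± 0.14 (SE, adjusted p = 0.000759), with 1.97 under PQY09 and 1.53 under PQY23_1, and it was called in every fit that left out a library. The promoter of DUSP1 is shown because it holds a full cyclic AMP response element, the only one among the 8 called immediate early genes with a promoter in the RefSeq table used. The 250 bases before its start, chr5:172771196-172771445 (minus strand) in GRCh38.p14 from RefSeq, read 5′ to 3′ on the gene's strand with the element in capitals:
DUSP1: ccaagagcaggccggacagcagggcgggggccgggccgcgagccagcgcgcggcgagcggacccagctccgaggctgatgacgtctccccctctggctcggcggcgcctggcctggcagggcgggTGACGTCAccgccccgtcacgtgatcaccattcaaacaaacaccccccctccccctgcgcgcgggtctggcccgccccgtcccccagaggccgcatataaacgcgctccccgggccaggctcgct
The letters TGACGTCA, which read the same on both strands, begin 125 bases and end 118 bases before the start. The same letters occur in 3.05% of the 8593 promoters available for tested genes, so that the match describes this window and shows no binding.

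NR4A1, an orphan nuclear receptor gene, rose from 5.26 to 7.17 CPM in DMSO to 12.4 to 17.6 CPM (log2 change 1.15 ± 0.14, adjusted p = 0.00441). ZFP36, whose product promotes decay of cytokine messages, rose to a similar extent (1.12 ± 0.11, adjusted p = 0.00144). Both were alike under the compounds and kept their call in every fit. FOSB, another AP-1 subunit gene, had 3.80, 2.32 and 1.001 CPM in the DMSO libraries, 9.98, 9.45 and 14.3 under PQY09 and 5.62, 6.08 and 9.32 under PQY23_1, and its call (1.91 ± 0.40, adjusted p = 0.0441) was lost in 8 of 9 fits, with an adjusted p of 0.172 without DMSO replicate 2. Over the list of 34 immediate early genes tested, 10 rose and 0 fell, with a median log2 change of 0.38 against 0.00 over all genes. Of the 10, 5 were alike, 4 were unequal and 1 was unresolved. The number called was 7 without DMSO replicate 2 and 8 to 10 in the other fits. MYC, a growth regulator on the list, did not pass the test (-0.24 ± 0.33, adjusted p = 0.81), with 10.8 to 26.4 CPM over the 9 libraries.

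JUN, EGR1 and RHOB rose under both compounds but to different extents. JUN, the gene of the main partner of FOS in AP-1, had 49.7, 44.9 and 47.7 CPM in the DMSO libraries, 245, 239 and 275 under PQY09 and 100.4, 108.1 and 133 under PQY23_1. The 3 groups did not overlap, and the pooled change of 1.84 ± 0.10 (SE, adjusted p = 0.00029) averaged 2.42 under PQY09 and 1.26 under PQY23_1. The compounds differed by -1.15 (95% interval -1.40 to -0.91, adjusted p = 0.0012). EGR1, a zinc finger transcription factor gene, was also higher under both, with 2.06 under PQY09 and 1.03 under PQY23_1 (adjusted p of the difference 0.0354). RHOB, a small GTPase gene, changed by 0.88 under PQY09 and 0.33 under PQY23_1 (adjusted p of the difference 0.00316).

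**Figure D2:**
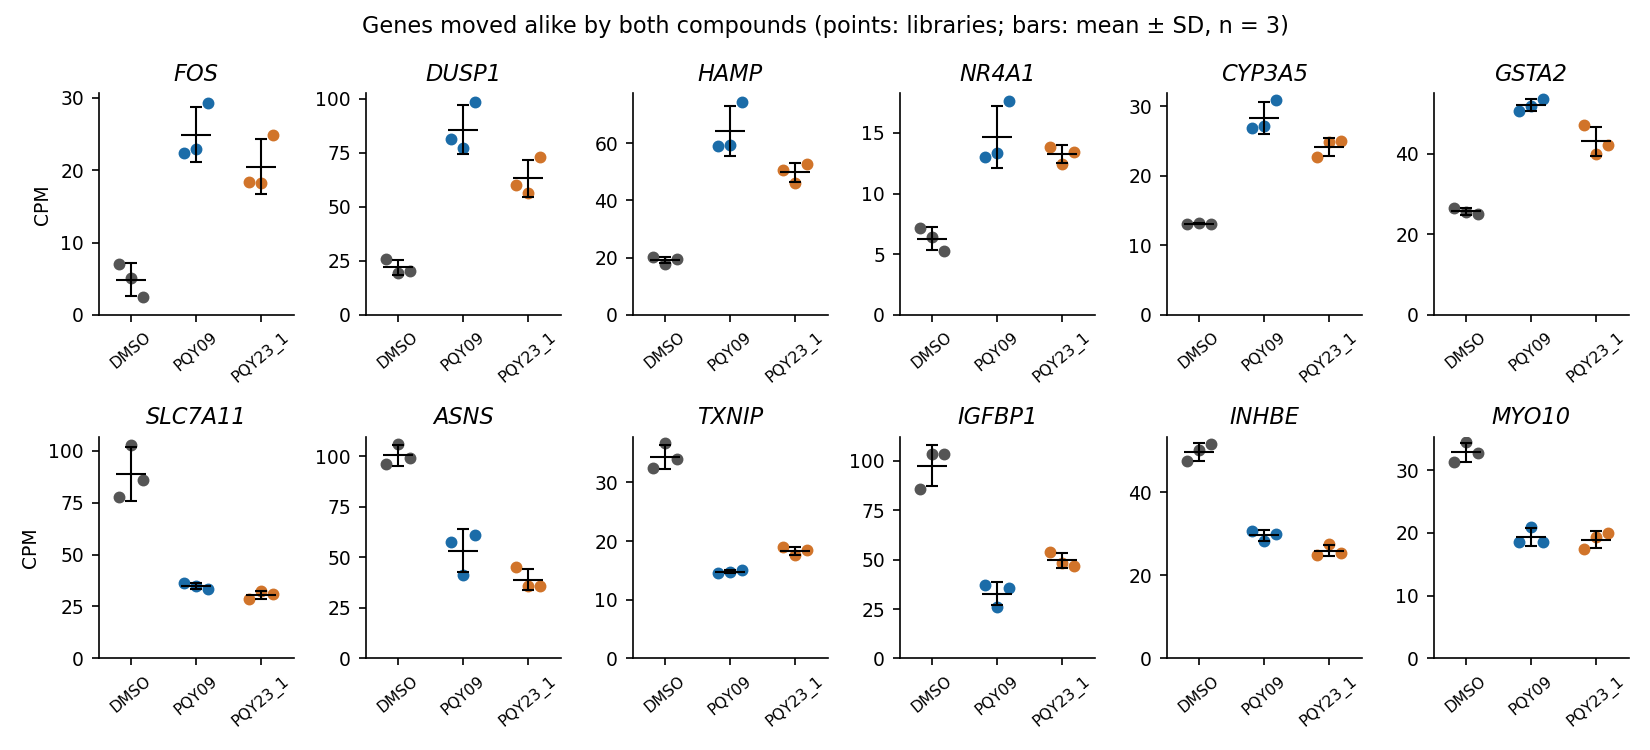
CPM of 12 genes classed as alike, 1 panel per gene with its own vertical axis from 0. Points are libraries by group and bars are the mean ± SD of 3 libraries. The upper row holds genes that rose and the lower row genes that fell. In each panel no treated library reaches the DMSO libraries, which was a condition of the rule that named these genes.

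HAMP, which encodes the iron hormone hepcidin (hg38 chromosome 19, 35280716 to 35285143, plus strand), had 20.1, 17.9 and 19.4 CPM in the DMSO libraries, 58.9, 59.5 and 74.5 under PQY09 and 50.5, 46.2 and 52.7 under PQY23_1. The treated libraries were all above 46 CPM and the DMSO libraries all at about 20 CPM or below. The log2 change of HAMP was 1.57 ± 0.10 (SE, adjusted p = 0.000359), a 2.96-fold rise that held in every fit, and the difference between compounds was -0.37 (95% interval -0.60 to -0.13, adjusted p = 0.126). Hepcidin is known to be driven by BMP signalling and by interleukin-6 through STAT3. SOCS3, a feedback inhibitor of STAT3 signalling, rose from 1.44 to 3.58 CPM (1.31 ± 0.17, adjusted p = 0.00625). HP, the gene of haptoglobin, rose from 139.7 to 196 CPM (0.49 ± 0.07) and SAA4, a constitutive serum amyloid A gene, from 107 to 155 CPM (0.53 ± 0.07, called in all but the fit without DMSO replicate 2, adjusted p = 0.056). The other 12 of 15 acute phase genes tested did not pass the test. ID1, a target of BMP signalling, had a log2 change of 0.36 ± 0.07 (adjusted p = 0.04), a call lost in 8 of 9 fits (adjusted p = 0.176 without DMSO replicate 2). Of 15 iron handling genes tested, HAMP and ID1 were called higher and SLC39A14, a zinc and iron importer gene, lower (-0.27 ± 0.06). The call for SLC39A14 was lost in 7 of 9 fits (adjusted p = 0.175 without DMSO replicate 2).

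Among targets of the foreign compound receptors PXR and CAR, 6 of 16 tested rose and 0 fell, with a median log2 change of 0.44. CYP3A5, a cytochrome P450 (hg38 chromosome 7, 99648194 to 99679996, minus strand), had 13.1, 13.2 and 13.1 CPM in the DMSO libraries, 26.9, 27.2 and 31.0 under PQY09 and 22.7, 24.9 and 25.1 under PQY23_1. The DMSO libraries lay within 0.2 CPM of each other, and every treated library was at least 9 CPM higher. The log2 change was 0.997 ± 0.07 (SE, adjusted p = 0.000629), or 1.996-fold, with 1.11 under PQY09 and 0.88 under PQY23_1. GSTA2, an alpha class glutathione transferase, rose from 25.7 to 47.5 CPM (0.88 ± 0.07, adjusted p = 0.000727), and both genes kept their call in every fit. Smaller rises were found for SULT2A1, a sulfotransferase (0.36 ± 0.05), and ABCC2, an export pump of the bile canaliculus (0.41 ± 0.07). The call for SULT2A1 was lost in 1 of 9 fits (adjusted p = 0.0597 without DMSO replicate 2) and that for ABCC2 in 3 of 9 (adjusted p = 0.0798 without DMSO replicate 3). CYP3A7 was unequal, with 1.48 under PQY09 and 0.25 under PQY23_1, and its call was lost in 6 of 9 fits (adjusted p = 0.119 without DMSO replicate 2). CYP3A4, the member best known for drug metabolism in adult liver, was below 0.5 CPM in every library. GSTA1 rose by 0.53 ± 0.09, a call lost in 6 of 9 fits (adjusted p = 0.0982 without DMSO replicate 1). GSTA1 and GSTA2, like CYP3A5 and CYP3A7, have similar sequences, so reads could have been split between them. The list had 2 calls without DMSO replicate 2, 3 without DMSO replicate 1, and 4 to 6 in the other fits.

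CYP1A1, the classic target of the aryl hydrocarbon receptor, had 13.2, 6.97 and 11.9 CPM in the DMSO libraries, 24.5, 18.5 and 23.2 under PQY09 and 23.3, 21.3 and 16.2 under PQY23_1. Every treated library was above every DMSO library, with a log2 change of 0.98 ± 0.22, but the adjusted p of 0.0511 missed the threshold. Of the 9 aryl hydrocarbon receptor targets tested, 0 passed it in edgeR's test, 5 had an unadjusted p below 0.05 with a higher level, and 1, CYP1A1, passed in DESeq2. Of 28 targets of the antioxidant regulator NRF2, 6 rose and 0 fell, with a median of 0.16. The most certain was ABCC3, an export pump of the basolateral membrane, which rose from 53.4 to 80.8 CPM (0.60 ± 0.05, adjusted p = 0.000916) and kept its call in every fit. EPHX1 and MGST1, an epoxide hydrolase and a microsomal glutathione transferase, changed by 0.51 and 0.45 on the log2 scale and were alike. Their calls were lost in 2 of 9 and 3 of 9 fits, with adjusted p of 0.0902 without DMSO replicate 2 and 0.0832 without DMSO replicate 2. AKR1C2, an aldo-keto reductase with similar relatives between which reads could be split, and PGD, of the pentose phosphate route, rose by 0.51 ± 0.08 and 0.32 ± 0.06. They lost their calls in 2 of 9 and 8 of 9 fits (adjusted p = 0.0647 without DMSO replicate 2 and 0.141 without DMSO replicate 2). HMOX1 (0.16 ± 0.06, adjusted p = 0.195) and NQO1 (0.14 ± 0.05, adjusted p = 0.21), the targets most often used to follow NRF2, did not pass. The NRF2 list had 1 rise without DMSO replicate 2 or without DMSO replicate 3, 4 rises and 1 fall without DMSO replicate 1, and 5 or 6 rises otherwise. Exons of EPHX1 overlap those of TMEM63A, and whether the counting used strand is not given.

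Further rises that were alike concerned genes of varied function. SLC22A7, an organic anion transporter gene of the liver, rose from 4.68 to 10.4 CPM (1.14 ± 0.12, adjusted p = 0.00222) and kept its call in every fit; its exons overlap those of CRIP3. BCAS1 rose from 1.88 to 5.01 CPM (1.41 ± 0.21, call lost without DMSO replicate 3, adjusted p = 0.0588). HIBADH, an enzyme of valine breakdown, had 44.1, 37.5 and 39.5 CPM in the DMSO libraries, 104, 101.3 and 104 under PQY09 and 128, 116 and 55.8 under PQY23_1. The third PQY23_1 library was much lower than its group, though above DMSO, and the call (1.33 ± 0.23, adjusted p = 0.0221) was lost in 5 of 9 fits (adjusted p = 0.115 without DMSO replicate 2). RASSF4 had the same pattern, with 32.8 CPM in that library against 62.4 and 64.4 CPM in its group, and a call lost in 6 of 9 fits (adjusted p = 0.114 without DMSO replicate 3). S100A1, a calcium binding protein gene whose exons overlap S100A13, rose by 0.95 ± 0.14, a call lost in 2 of 9 fits (adjusted p = 0.0695 without DMSO replicate 2). TAMALIN (0.88 ± 0.18) and ARNTL2 (0.84 ± 0.15) lost theirs in 8 of 9 and 7 of 9, with adjusted p up to 0.143 without DMSO replicate 1 and 0.111 without DMSO replicate 2.

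Heat shock genes were called in 3 of 19 cases. HSPA1B and HSPA1A, near-identical copies of the inducible HSP70 gene between which reads could have been split, rose by 0.66 ± 0.06 and 0.60 ± 0.06 and kept their calls in every fit; HSPA1A was classed as unequal, with 0.77 under PQY09 and 0.44 under PQY23_1. HSPH1, a chaperone partner of HSP70, rose by 0.27 ± 0.04, and its call was lost in 2 of 9 fits (adjusted p = 0.065 without DMSO replicate 3).

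Among the lists, those of amino acid supply held the most shared falls. SLC7A11, the cystine importer (hg38 chromosome 4, 138164097 to 138242349, minus strand), had 77.6, 103 and 85.9 CPM in the DMSO libraries, 36.5, 35.0 and 33.7 under PQY09 and 28.6, 32.3 and 30.9 under PQY23_1. The 6 treated libraries lay between 28.6 and 36.5 CPM, far below the lowest DMSO library. Its log2 change was -1.44 ± 0.09 (SE, adjusted p = 0.000352), a 2.71-fold fall, with -1.34 under PQY09 and -1.54 under PQY23_1.

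ASNS, asparagine synthetase (hg38 chromosome 7, 97851677 to 97872542, minus strand), had 96.0, 106 and 99.3 CPM in the DMSO libraries, 57.8, 41.1 and 61.2 under PQY09 and 45.1, 35.8 and 36.0 under PQY23_1. All treated libraries were below 62 CPM and all DMSO libraries above 95 CPM. It fell by 1.14 on the log2 scale (adjusted p = 0.00271), and the difference between compounds was -0.45 (95% interval -0.80 to -0.11, adjusted p = 0.198). MTHFD2, an enzyme of mitochondrial one-carbon metabolism, had 242 ± 12.4 CPM in DMSO (SD, n = 3) and 134 ± 18.4 CPM in the treated libraries (SD, n = 6), with a log2 change of -0.85 ± 0.10. SLC7A1, an arginine and lysine importer, went from 157 to 94.4 CPM (-0.74 ± 0.06, adjusted p = 0.00114). PSAT1 of serine synthesis changed by -0.53 ± 0.05, GPT2, a mitochondrial alanine transaminase, by -0.49 ± 0.04, and STC2, a secreted glycoprotein gene, by -0.51 ± 0.06. These 7 genes were alike under the compounds and called in every fit that left out a library.

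Over the list of 35 ATF4 targets tested, 17 fell and 2 rose, and the median log2 change was -0.30. Of the 17 falls, 11 were alike and 6 were unequal. CTH, the transsulfuration enzyme that makes cysteine, was one of the unequal genes, with -0.85 under PQY09 and -1.24 under PQY23_1 (pooled -1.04 ± 0.07, adjusted p = 0.000387; adjusted p of the difference 0.048). The risers were ATF5 and PPP1R15A, a related transcription factor and the phosphatase subunit that reverses the stress arrest of translation. ATF4 message itself did not pass the test (-0.10 ± 0.23, adjusted p = 0.891) and ranged from 61.0 to 139 CPM within the treated libraries. DDIT3, the stress factor CHOP, did not pass either (-0.02 ± 0.18, adjusted p = 0.983), and its exons overlap those of MARS1. The number of ATF4 targets called lower was 12 to 18 when a library was left out. The number called higher was 0 without any 1 of the DMSO libraries and 1 in each of the other 6 fits.

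Of 20 cytosolic aminoacyl-tRNA synthetases tested, 8 fell and 0 rose, with a median of -0.15. These enzymes join amino acids to transfer RNA. MARS1, for methionine, had 212, 204 and 183 CPM in the DMSO libraries, 127, 127 and 133 under PQY09 and 129, 126 and 134 under PQY23_1. The treated libraries spanned 126 to 134 CPM, below the 183 CPM of the lowest DMSO library, and the log2 change was -0.63 ± 0.05 (SE, adjusted p = 0.00114). CARS1 (-0.57 ± 0.05), GARS1 (-0.53 ± 0.05), YARS1 (-0.38 ± 0.04) and EPRS1 (-0.32 ± 0.04) also fell and, like MARS1, kept their call in every fit. WARS1 (-0.31 ± 0.05) lost its call in 2 of 9 fits (adjusted p = 0.0525 without DMSO replicate 2). Exons of YARS1 overlap S100PBP. Of the 8 falls 7 were alike and 1 was unresolved. The list had 5 calls without DMSO replicate 1 or 2 and 6 to 9 otherwise. INHBE, an inhibin gene of the liver that is not on the lists, had 49.8 ± 2.16 CPM in DMSO (SD, n = 3) and 27.8 ± 2.33 CPM in the treated libraries (SD, n = 6), with a log2 change of -0.85 ± 0.06 (adjusted p = 0.000552). Among genes of the 2 lists that fell, 12 of 25 had a promoter in the RefSeq table, and 0 of these 12 held the letters TGATGNAA, taken here for the ATF4 response element, on either strand, against 1.35% of all 8593. The absence says only that these letters are not in the 250 bases before the start.

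**Figure D3:**
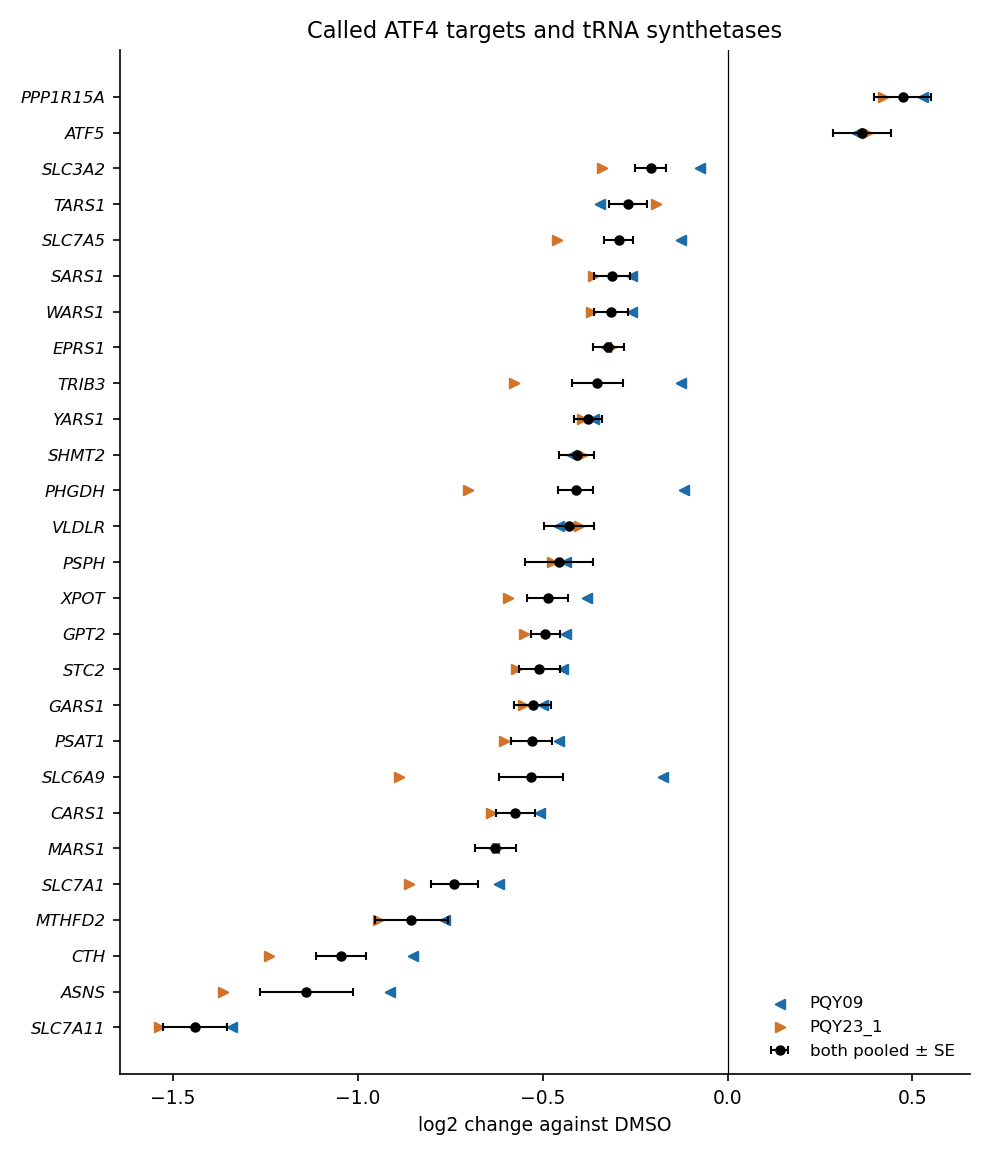
Log2 change against DMSO of the 27 called ATF4 targets and tRNA synthetases, 1 row per gene. Black points are the mean of both compounds with its SE, and triangles are PQY09 and PQY23_1 alone. All but ATF5 and PPP1R15A lie below 0; of the 27 genes, 20 were classed as alike.

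TXNIP, which restrains glucose uptake and binds thioredoxin (hg38 chromosome 1, 145992435 to 145996579, minus strand), had 32.5, 36.6 and 33.9 CPM in the DMSO libraries, 14.6, 14.7 and 15.03 under PQY09 and 18.9, 17.6 and 18.5 under PQY23_1. No treated library reached 19 CPM and no DMSO library was below 32 CPM, and the log2 change was -1.06 ± 0.06 (SE, adjusted p = 0.00029). Its relative ARRDC4 fell from 5.35 to 3.78 CPM (-0.50 ± 0.10), a call lost in 8 of 9 fits (adjusted p = 0.149 without DMSO replicate 2). SLC2A3, a glucose transporter, went from 162 to 83.1 CPM and was unequal, with -0.75 under PQY09 and -1.22 under PQY23_1. SLC2A1, the transporter of most growing cells, had 186, 127 and 192 CPM in the DMSO libraries, 75.1, 94.6 and 73.1 under PQY09 and 147, 122 and 112 under PQY23_1. Treated and DMSO libraries overlapped, and its call (-0.73 ± 0.15, adjusted p = 0.0381) was lost in 6 of 9 fits (adjusted p = 0.148 without DMSO replicate 3). CA9, a carbonic anhydrase induced by low oxygen, had the largest named fall, with 10.5, 12.2 and 10.7 CPM in the DMSO libraries, 3.87, 1.06 and 2.89 under PQY09 and 4.73, 5.27 and 3.31 under PQY23_1. Its log2 change of -1.71 ± 0.32 (adjusted p = 0.031) lost its call in 7 of 9 fits (adjusted p = 0.128 without DMSO replicate 2). Of 32 hypoxia and glycolysis genes tested, 5 fell and 1, ADM, rose (0.56 ± 0.10, call lost in 5 of 9 fits, adjusted p = 0.119 without DMSO replicate 2), with a median of -0.12. The list had 2 falls without DMSO replicate 1 or 3, without PQY09 replicate 3, or without PQY23_1 replicate 2 or 3, and 3 to 5 otherwise. GAPDH did not pass the test (-0.11 ± 0.08, adjusted p = 0.601).

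IGFBP1, a secreted binding protein for insulin-like growth factors that FOXO factors activate (hg38 chromosome 7, 45888360 to 45893660, plus strand), had 85.7, 103 and 104 CPM in the DMSO libraries, 36.9, 26.0 and 35.7 under PQY09 and 53.8, 48.2 and 46.8 under PQY23_1. The groups did not overlap, and the log2 change was -1.27 ± 0.12 (SE, adjusted p = 0.00121). The compounds differed by 0.59 (95% interval 0.28 to 0.91, adjusted p = 0.0732). FOXO1 itself went from 30.7 to 22.1 CPM (-0.48 ± 0.07), a call lost in 1 of 9 fits (adjusted p = 0.053 without DMSO replicate 2), and IGF1R from 68.6 to 54.4 CPM (-0.34 ± 0.06), lost in 6 of 9 fits (adjusted p = 0.14 without DMSO replicate 2). The other 15 of 18 insulin and FOXO genes tested did not pass. PLIN2, the coat protein of lipid droplets, had 349 ± 7.78 CPM in DMSO (SD, n = 3) and 233 ± 12.7 CPM in the treated libraries (SD, n = 6), with a log2 change of -0.59 ± 0.05 (adjusted p = 0.000759), and was alike.

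Of 36 matrix, adhesion and actin genes tested, 7 fell and 2 rose, with a median of -0.08. LOX, which crosslinks collagen, went from 50.3 to 26.4 CPM (-0.95 ± 0.09, adjusted p = 0.00121), and kept its call in every fit. TNS1, a focal adhesion protein, went from 13.6 to 6.13 CPM (-1.15 ± 0.18), a call lost in 3 of 9 fits (adjusted p = 0.0787 without DMSO replicate 2). The list had 2 falls without DMSO replicate 1 or 2, 3 without DMSO replicate 3, and 5 or 6 otherwise. TGFBR3, the coreceptor betaglycan, changed by -0.92 ± 0.10, and MYO10, a myosin of filopodia, by -0.78 ± 0.07, both alike and called in every fit. The epithelial genes KRT18 (-0.49 ± 0.05), whose exons overlap KRT8, and CLDN1 (-0.67 ± 0.04), a tight junction gene that was unequal, fell in every fit too. DLK1, a progenitor gene, was called higher with 0.54 under PQY09 and 0.29 under PQY23_1, and its call was lost in 2 of 9 fits (adjusted p = 0.0638 without DMSO replicate 2). Among the 15 largest alike falls were also HOXD1 (-0.96 ± 0.12), TTC39B (-0.91 ± 0.11) and CHST15 (-0.85 ± 0.11), which kept their calls in every fit.

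Called genes that were lower had a longer median locus. The median span from start to end was 37.3 kb for the 249 lower genes, 20.5 kb for the 335 higher genes and 19.4 kb for all genes tested. Among alike genes the medians were 42.3 kb and 20.1 kb. The spans are those of the deposited annotation, and no test was made of this difference.

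Among the lists, those of lipid synthesis held the most rises, and in them the compounds were mostly unequal. Of 28 genes of cholesterol synthesis and its control tested, 15 rose and 0 fell, with a median log2 change of 0.47, beside medians of 0.80 under PQY09 and 0.12 under PQY23_1. Of the 15, 13 were unequal, 2 were unresolved and 0 were alike. MVD, mevalonate diphosphate decarboxylase (hg38 chromosome 16, 88651935 to 88663161, minus strand), had 84.5, 86.7 and 90.4 CPM in the DMSO libraries, 204, 196 and 209 under PQY09 and 128, 107 and 118 under PQY23_1. The groups stood in 3 steps without overlap, with a pooled log2 change of 0.83 ± 0.06 (SE, adjusted p = 0.000742) and a difference between compounds of -0.78 (95% interval -0.95 to -0.62, adjusted p = 0.00115). MSMO1, a sterol demethylase, rose by 0.80 ± 0.08 (adjusted p = 0.00144), averaged over 1.06 under PQY09 and 0.53 under PQY23_1. LSS, which closes the sterol rings, rose by 0.67 ± 0.06 (adjusted p = 0.000973), averaged over 1.05 under PQY09 and 0.30 under PQY23_1. SQLE (0.44), CYP51A1 (0.47) and ACAT2 (0.48) rose in the pooled comparison with log2 changes of 0.12 or less under PQY23_1; exons of ACAT2 overlap TCP1. The cholesterol list had 11 calls without DMSO replicate 1 or 2 and 12 to 15 otherwise.

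Of the 15 cholesterol genes that rose, 10 had a promoter in the RefSeq table, and 9 of these 10 held a CCAAT box, the site of the factor NFY that acts beside SREBP, against 35.8% of all 8593 promoters. CYP51A1 was the exception. The letters searched were CCAAT on either strand, so that a match on the opposite strand reads ATTGG. The median GC content of the 10 was 66.6%, against 64.8% over all promoters, and no test was made. The letters TCACNCCAC, taken for an SREBP site, occurred in 0 of the 10 and in 0.815% of all. The 3 promoters below, each of 250 bases before the start, belong to the named genes with the largest rises and are shown for the number and spacing of the boxes, which are in capitals. They are from RefSeq in GRCh38.p14, 5′ to 3′ on the gene's strand, at chr16:88663092-88663341 (minus strand), chr4:165327419-165327668 (plus strand) and chr21:46228775-46229024 (minus strand):
MVD: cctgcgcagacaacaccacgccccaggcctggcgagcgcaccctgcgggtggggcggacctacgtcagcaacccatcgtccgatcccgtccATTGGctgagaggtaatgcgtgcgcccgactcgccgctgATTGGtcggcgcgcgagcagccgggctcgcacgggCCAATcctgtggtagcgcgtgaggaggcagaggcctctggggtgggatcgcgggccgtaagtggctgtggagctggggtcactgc
MSMO1: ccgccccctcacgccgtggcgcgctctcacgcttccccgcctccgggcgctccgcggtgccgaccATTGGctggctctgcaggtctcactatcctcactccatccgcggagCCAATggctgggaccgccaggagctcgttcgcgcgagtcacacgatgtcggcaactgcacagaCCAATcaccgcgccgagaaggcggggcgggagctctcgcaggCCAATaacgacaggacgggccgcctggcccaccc
LSS: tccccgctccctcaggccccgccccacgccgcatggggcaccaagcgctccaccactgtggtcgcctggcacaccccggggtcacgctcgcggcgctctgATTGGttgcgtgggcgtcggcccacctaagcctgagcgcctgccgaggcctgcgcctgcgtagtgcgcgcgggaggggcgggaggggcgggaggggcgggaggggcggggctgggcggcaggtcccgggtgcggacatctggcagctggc
MVD held 3 boxes, which begin 159, 120 and 85 bases before the start. MSMO1 held 4, which begin 185, 139, 76 and 34 bases before it, and LSS held 1, at 150 bases. A match describes these windows only.

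Fatty acid and triglyceride synthesis followed the same order. Of 26 genes tested, 11 rose and 1, LPIN2, fell, with a median of 0.32, against 0.46 under PQY09 and 0.09 under PQY23_1. ACSS2, which makes acetyl-CoA from acetate (hg38 chromosome 20, 34872146 to 34927962, plus strand), had 86.3, 81.3 and 88.6 CPM in the DMSO libraries, 261, 275 and 263 under PQY09 and 123, 127 and 131 under PQY23_1. It had the lowest adjusted p of the genes named (0.000128), at a log2 change of 1.11 ± 0.05 (SE) that averaged 1.64 under PQY09 and 0.57 under PQY23_1. The compounds differed by -1.07 (95% interval -1.20 to -0.94, adjusted p = 6.86e-05). ELOVL6, an elongase, rose by 0.64 ± 0.06, ACLY, which makes cytosolic acetyl-CoA from citrate, by 0.52 ± 0.05, and SCD, a desaturase, by 0.37 ± 0.04. Each kept its call in every fit and was unequal. FADS2 and FADS1, neighbouring desaturase genes with overlapping exons, were called through PQY09, with 1.03 under PQY09 and 0.01 under PQY23_1 for FADS2. Each fit that left out a library had 6 or 7 rises in place of 11, and 8 of the 9 fits had 0 falls; the fit without PQY23_1 replicate 1 had 1. Among 21 genes of fatty acid oxidation and PPARA targets, 4 were called higher and 1, PLIN2, lower. EHHADH, a peroxisomal oxidation enzyme, was the only alike rise (0.39 ± 0.05, called in every fit). CPT1A, the gate of mitochondrial oxidation, rose by 0.32 ± 0.06, a call lost in 8 of 9 fits (adjusted p = 0.131 without DMSO replicate 1).

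**Figure D4:**
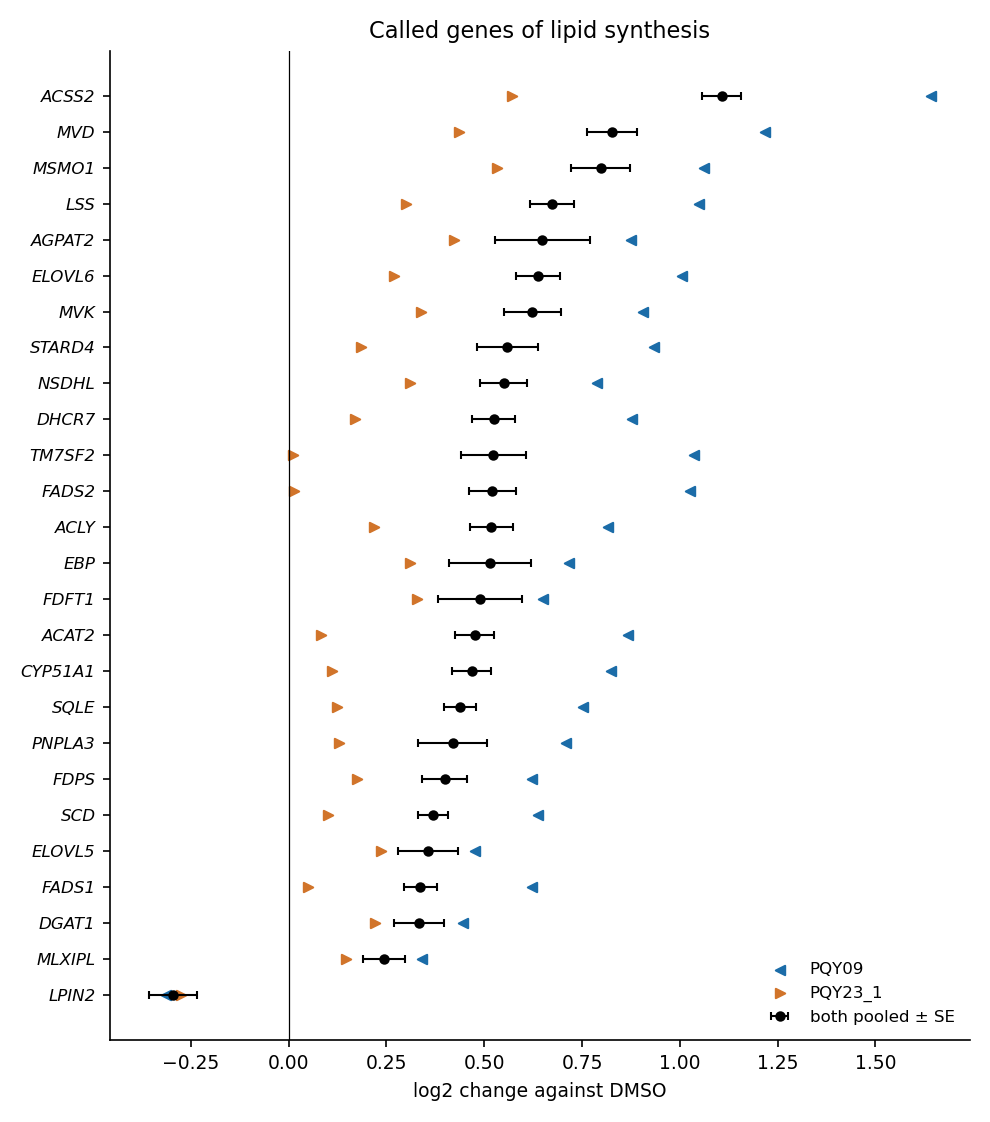
Log2 change against DMSO of 26 of the 27 called genes of cholesterol, fatty acid and triglyceride synthesis, 1 row per gene, with symbols as in the plot of ATF4 targets. The PQY09 triangles lie to the right of the mean and the PQY23_1 triangles to its left in every row that rose; ACSS2 is the highest at a pooled change of 1.11, and LPIN2 is the only gene below 0.

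Some pooled calls came from 1 compound or averaged opposite movements. VKORC1L1, a vitamin K reductase gene, had 23.0, 25.2 and 25.3 CPM in the DMSO libraries, 23.8, 24.7 and 23.5 under PQY09 and 65.9, 67.7 and 66.0 under PQY23_1. The PQY09 libraries lay within the DMSO range, so the pooled change of 0.70 ± 0.05 (adjusted p = 0.000742) averaged -0.03 under PQY09 and 1.44 under PQY23_1. TIMP1, an inhibitor of matrix proteases, was called higher (0.50 ± 0.08, adjusted p = 0.0154) while changing by -0.41 under PQY09 and 1.41 under PQY23_1. LGALS1, galectin 1, was called higher with -0.28 under PQY09 and 0.85 under PQY23_1. FABP1, a liver fatty acid binding protein, was called higher with 0.97 under PQY09 and -0.20 under PQY23_1, and VNN1, a pantetheinase gene, with -0.14 under PQY09 and 1.54 under PQY23_1. TNS4 was called lower with -1.34 under PQY09 and 0.12 under PQY23_1. Apart from VKORC1L1, these calls were lost in some fits. TIMP1 lost it in 3 of 9 (adjusted p = 0.0885 without DMSO replicate 2), LGALS1 in 3 of 9 (adjusted p = 0.0707 without DMSO replicate 3) and FABP1 in 2 of 9 (adjusted p = 0.0678 without DMSO replicate 2). VNN1 lost it in 9 of 9 (adjusted p = 0.185 without DMSO replicate 2) and TNS4 in 2 of 9 (adjusted p = 0.076 without DMSO replicate 2).

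Of 27 hepatocyte identity genes tested, CEBPA (0.32 ± 0.06) and AMBP (0.27 ± 0.05) were called higher and 0 lower. Both calls were lost in some fits, CEBPA in 6 of 9 (adjusted p = 0.141 without DMSO replicate 2) and AMBP in 5 of 9 (adjusted p = 0.0982 without DMSO replicate 1). ALB, the albumin gene, had 6555, 6592 and 6594 CPM in the DMSO libraries, 7639.8, 7570.4 and 7596 under PQY09 and 6822, 6224 and 6418 under PQY23_1 and did not pass (0.09 ± 0.04, adjusted p = 0.244). Of 18 apolipoprotein and plasma carrier genes 0 passed in edgeR's test, against 10 (8 higher, 2 lower) both at an unadjusted p below 0.05 and in DESeq2. Of 17 clotting and vitamin K genes 4 were called higher and 0 lower. F11 (0.39 ± 0.05) and F10 (0.26 ± 0.05) were alike, with calls lost in 1 of 9 (adjusted p = 0.056 without DMSO replicate 2) and 8 of 9 fits (adjusted p = 0.18 without DMSO replicate 2). SERPINC1, the gene of antithrombin, was called higher with 0.45 under PQY09 and 0.16 under PQY23_1, a call lost in 7 of 9 fits (adjusted p = 0.163 without DMSO replicate 2). Among 21 genes that break down amino acids or run the urea cycle, 4 were called higher and 1 lower. HPD, of tyrosine breakdown, rose in every fit and was unequal, with 0.19 under PQY09 and 0.95 under PQY23_1; NAGS and BHMT were alike, at 0.59 ± 0.10 and 0.52 ± 0.09, with calls lost in 6 of 9 (adjusted p = 0.123 without DMSO replicate 2) and 5 of 9 fits (adjusted p = 0.107 without DMSO replicate 2). FAH, the last enzyme of tyrosine breakdown, rose by 0.43 ± 0.07 and GOT1, a cytosolic aspartate transaminase, changed by -0.32 ± 0.05. Their calls were lost in 2 of 9 (adjusted p = 0.0759 without DMSO replicate 2) and 3 of 9 fits (adjusted p = 0.0647 without DMSO replicate 2). The clotting list had 1 rise without DMSO replicate 2 and 2 to 4 in the other fits, and the amino acid list 1 without DMSO replicate 2 or 3 and 2 to 4 in the others.

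Genes of the cell cycle are of interest because Butyrolactone I is known as a kinase inhibitor. The values here are transcript levels, and kinase activity was not measured. Of 30 cyclin dependent kinases, cyclins and kinase inhibitors tested, 0 were called in edgeR's test, 6 (4 higher, 2 lower) had an unadjusted p below 0.05, and 1 was called higher in DESeq2. CDK1, the mitotic kinase, had 48.8, 57.1 and 50.8 CPM in the DMSO libraries, 67.4, 61.2 and 58.3 under PQY09 and 62.8, 62.0 and 57.7 under PQY23_1, with a log2 change of 0.24 ± 0.07 (adjusted p = 0.135). CDK2 had a change of 0.23 ± 0.11 (adjusted p = 0.366), CCNB1 of 0.07 ± 0.05 (adjusted p = 0.565) and CCND1 of -0.01 ± 0.05 (adjusted p = 0.96). CDKN1A, the inhibitor p21, did not pass (0.31 ± 0.62, adjusted p = 0.875) and varied widely, from 20.8 to 91.2 CPM within DMSO and from 25.9 to 123 CPM within the treated libraries. Of 33 S phase genes, RFC3 and CHAF1A were called higher (0.25 ± 0.05 and 0.33 ± 0.05), against 8 higher in DESeq2. In edgeR's test 16 of the 33 were higher and 0 lower at an unadjusted p below 0.05, beside 3334 of all 20157 genes in either direction. The S phase median was 0.15, and 0.10 on TPM. Of 28 G2 and mitosis genes HMMR was called higher (0.34 ± 0.05), with 6 higher and 0 lower at an unadjusted p below 0.05. The call for RFC3 was lost in all 9 fits (adjusted p = 0.152 without DMSO replicate 1), that for CHAF1A in 2 of 9 (adjusted p = 0.0537 without DMSO replicate 2) and that for HMMR in 2 of 9 (adjusted p = 0.0675 without DMSO replicate 2). Of 20 p53 targets 0 were called in edgeR's test, 5 (3 higher, 2 lower) had an unadjusted p below 0.05, and DESeq2 called 2 higher and 1 lower. The medians of the CDK and p53 lists were 0.05 and 0.03, and -0.01 and -0.03 when levels were scaled to equal sums per length (TPM). The median of all genes moved from 0.00 to -0.05 with that scaling, so both lists stayed slightly above it.

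Of 21 genes of the unfolded protein response 1, XBP1, was called lower (-0.22 ± 0.04, call lost in all 9 fits, adjusted p = 0.151 without DMSO replicate 3), whereas DESeq2 called 6 lower. Of 56 cytosolic ribosomal protein genes 1, RPSA, was called lower (-0.26 ± 0.05, call lost in 8 of 9 fits, adjusted p = 0.162 without DMSO replicate 2), and of 15 genes of the mitochondrial genome 0 were called in either edgeR or DESeq2, with 2 at an unadjusted p below 0.05. Mitochondrially encoded genes took 13.4% ± 0.743 of the counts in DMSO (SD, n = 3) and 14.5% ± 1.68 in the treated libraries (SD, n = 6), with 13.3% under PQY09 and 15.8% under PQY23_1. The difference of 1.12 percentage points was not past a two-sided exact permutation test over libraries (p = 0.333 over 84 regroupings, of which the smallest possible p is 0.0119). Numbers of calls in these lists, as in those above, are to be read against the 2.9% called over all genes in edgeR's test. For calls in DESeq2 the comparison is 1543 of 20157 genes.

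**Figure D5:**
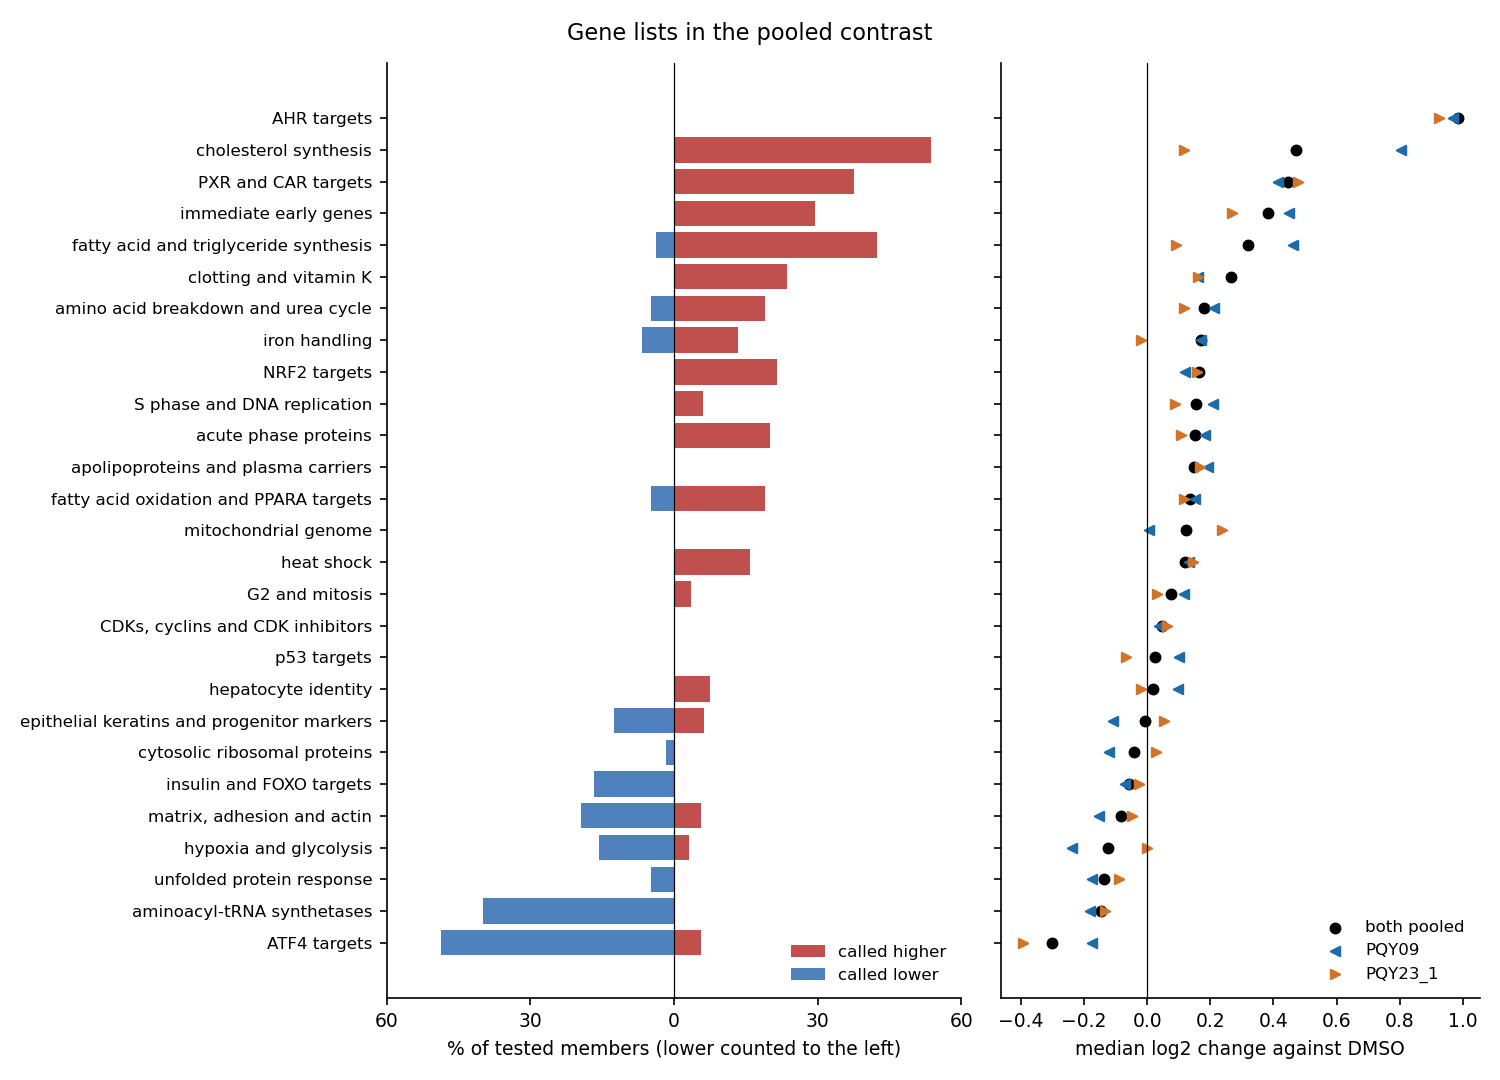
The 27 gene lists in the pooled comparison, ordered by median log2 change. Left, the percentage of tested members called higher (to the right of 0) or lower (to the left); right, the median log2 change against DMSO for both compounds pooled and for each alone. Cholesterol synthesis and ATF4 targets have the largest shares called, and the compounds lie apart for the lipid lists and close together for the tRNA synthetases; the aryl hydrocarbon receptor list, with the highest median on the count scale (0.98, but 0.11 on TPM, where 4 of its 9 members passed the filter), has no call.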

How the data were processed

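Total RNA of HepG2 cells, in 9 libraries with 3 per treatment, was sequenced on an Illumina NovaSeq instrument. The authors deposited 1 table of estimated read counts and FPKM for 60612 genes, with hg38 coordinates and gene names. The estimated counts, whole numbers that the submitters' processing notes place beside cutadapt 1.9, HISAT2 2.0.4 and StringTie 1.3.4d without stating roles, were deposited unnormalized. Counts of 4 (10696 values) outnumber those of 3 (4024) and 5 (2277), so low counts may not be plain read counts. The deposited FPKM values hold 1e-04 where the count is 0, and served only the limma alternatives, on a log2 scale after a pseudocount.

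The filter on low counts was filterByExpr of edgeR with a minimum of 10 counts and a total of at least 15, TMM factors were 0.977 to 1.026, and group means of all 9 libraries were fitted with edgeR 4.0.16 in R 4.3.3 (quasi-likelihood F test, 6 residual degrees of freedom). The pooled contrast is the mean of both compounds minus DMSO. Benjamini-Hochberg adjustment ran over all 20157 genes. SE values are the size of the change divided by the root of F. Alternatives were DESeq2 1.42.0, limma 3.58.1, other scalings and filters, a replicate block and each library left out. The scripts were tested on simulated data.

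The gene lists and the choice of comparison were made with earlier results of these data known. Genes are named by rule: the 15 largest alike rises and falls and the 4 largest unequal differences in each direction, each at 5 CPM or more and without overlap between groups, up to 6 called genes per list by lowest p, and a fixed panel. LYZ is named as a marker, and ATF5, PPP1R15A and LPIN2 after their values were seen. Promoters came from a RefSeq table of GRCh38.p14, which matched 8593 of the 20157 genes by symbol; ASNS and SLC7A11 are not shown. Some genes within the rule are not reported here.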

Additional observations from a re-analysis of the deposited data

Results flagged for a closer look

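For 8 genes that were called in the pooled comparison, the change under the 2 compounds differed by edgeR's test of the difference itself. Among unequal genes named by rule at 5 CPM or more, without overlap between treated and DMSO libraries, these had the 4 largest differences in each direction. Some unequal genes whose libraries overlapped differed more, such as TIMP1 (1.82) and CYP3A7 (-1.23). JUN, the AP-1 subunit gene, had a difference in log2 change, PQY23_1 minus PQY09, of -1.15 (adjusted p = 0.0012). EGR1, a transcription factor gene, had -1.04 (adjusted p = 0.0354) and ACSS2, acetyl-CoA synthetase, -1.07 (adjusted p = 6.86e-05). SV2A, a synaptic vesicle protein gene, had 7.15, 7.32 and 7.74 CPM in the DMSO libraries, 19.2, 21.5 and 20.4 under PQY09 and 9.37, 10.2 and 8.88 under PQY23_1, a difference of -1.10 (adjusted p = 0.000798). All 4 rose more under PQY09.

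The other 4 rose more under PQY23_1. MYO15B, a myosin gene, had 7.76, 7.10 and 7.82 CPM in the DMSO libraries, 9.58, 9.72 and 9.995 under PQY09 and 17.7, 17.7 and 18.5 under PQY23_1, with a difference of 0.88 (adjusted p = 0.00117). AREG, amphiregulin, a ligand of the epidermal growth factor receptor, had 19.7, 19.1 and 22.4 CPM in the DMSO libraries, 25.6, 25.6 and 25.8 under PQY09 and 42.8, 38.1 and 42.2 under PQY23_1, with a difference of 0.68 (adjusted p = 0.00446). HPD, an enzyme of tyrosine breakdown, had 359.7, 339.6 and 346 CPM in the DMSO libraries, 384, 399 and 407 under PQY09 and 726, 637 and 660.2 under PQY23_1, with a difference of 0.77 (adjusted p = 0.000602). MPP1, a membrane scaffold gene, had 5.47, 8.02 and 7.97 CPM in the DMSO libraries, 9.003, 8.97 and 9.88 under PQY09 and 15.4, 17.7 and 14.5 under PQY23_1, with a difference of 0.77 (adjusted p = 0.0439), and its pooled call was lost in 7 of 9 fits that left out a library (adjusted p = 0.0718 without DMSO replicate 2).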

How the results depend on the processing

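No gene named reversed direction in any alternative in which it was called. Over all named genes and alternatives, 2311 values kept their side of the threshold, 360 lost the call and 6 gained it, all for CYP1A1, which passed in DESeq2, with a 1 CPM filter, with counts divided by 4 and in the 3 limma settings. DESeq2's Wald test called 836 genes higher and 707 lower, 1251 between compounds, with 693 alike and 370 unequal. Treating the 6 libraries as 1 group gave 100 higher and 85 lower. Without a filter 221 were higher and 84 unequal. limma on log2(FPKM + 1) gave 199 unequal, and on log2(TPM + 1) 216 alike and 920 between compounds. TPM scaling moved the median of all genes to -0.05 and gave 225 higher and 249 lower (47.5% higher, against 57.4%). With 1 library left out, 97 to 278 genes were higher, 72 to 235 lower, 105 to 304 alike, 54 to 112 unequal and 222 to 397 different between compounds, and the difference in mitochondrial share was 0.738 to 1.54 points.

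Replicate numbers are shared between groups. Over all genes tested, deviations from the group means had r from -0.036 to 0.026 between libraries with the same number. For libraries with different numbers r was -0.044 to 0.038. An r over all genes cannot show whether some genes varied with the replicate number, so a pairing was not settled. With a replicate block 186 genes were higher and 127 lower, 199 alike and 69 unequal, and 267 differed between compounds; 298 of the 584 calls were kept. The cause of these shifts was not tested. With a median SE of 0.56 below 1 CPM, small changes of low genes were not detectable at this depth and number of libraries.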
